A study of Mus musculus with 4 samples.

Results

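Wnt signalling genes were examined in RNA sequencing of cultured mouse liver cells: 43 genes for the Wnt ligands, the Frizzled receptors, the co-receptors and the secreted antagonists, of 21878 rows in the deposited tables. They were taken by symbol alone: 19 Wnt genes, 10 Frizzled genes, 5 co-receptor genes (Lrp5, Lrp6, Ror1, Ror2 and Ryk) and 9 antagonist genes (Sfrp1, Sfrp2, Sfrp4, Sfrp5, Dkk1 to Dkk4 and Wif1). The cells were liver progenitor-like cells, which adult liver cells give rise to when they divide in culture. They were grown in transition and expansion media from hepatocytes (HepLPC, n = 2 libraries) or from non-parenchymal cells (NPC_LPC, n = 2 libraries). The labels give C57BL/6 mice of 6 to 8 weeks for both groups, and the protocol gives mice of 8 weeks. It names tdTomato mice with AAV8-TBG-Cre, a virus that directs Cre to hepatocytes, for the hepatocyte preparations, and AlbCreERT/R26GFP mice, in which an albumin-driven inducible Cre marks cells with GFP, for the non-parenchymal ones. If the mice were used in that order, origin, mouse line and virus cannot be told apart. Because the cell type label of HepLPC names both sources, groups were set by title and protocol. The labels do not say whether replicates are separate mice or cultures, and p-values therefore measure only the spread between these libraries.

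Wnt proteins are secreted, lipid-modified ligands that bind the extracellular cysteine-rich domain of Frizzled receptors. With Lrp5 or Lrp6 as co-receptor the signal stabilises beta-catenin, while Ror1, Ror2 and Ryk are receptors better known for signalling outside that branch, such as cell polarity and migration. Secreted Frizzled-related proteins (Sfrp) and Wif1 bind Wnt ligands, and Dickkopf proteins (Dkk) such as Dkk1 bind Lrp5 and Lrp6. In the adult liver, Wnt2 and Wnt9b from endothelial cells near the central vein are known to sustain the gene programme of neighbouring hepatocytes, and Wnt signals also act in regeneration.

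Total counts ran from 17575998 to 20625957 per library. Values in CPM, which are counts normalised to library size with TMM factors, compare 1 gene between libraries. The deposited FPKM, which are also normalised to transcript length, compare different genes within a library. A pair of values for a group is given as replicate 1 and then replicate 2. A count of 3, used as the floor, equals between 0.149 and 0.169 CPM and covers counting error only. The libraries within a group were not alike. The 4 Y-linked genes above 10 CPM had a median log2 difference of -6.64 between HepLPC replicates 2 and 1, against -0.36 between NPC_LPC replicates 2 and 1. Markers of mature hepatocytes were low apart from Hnf4a: Alb, the albumin gene, had 41, 2, 2 and 3 counts in HepLPC replicates 1 and 2 and NPC_LPC replicates 1 and 2, and Cyp2e1 had none. Biliary markers summed to 2214 to 9503 CPM over 6 genes, with Spp1 the largest in every library, and Epcam had at most 31 counts. Krt19 measured 1434 and 885 CPM in HepLPC, against 111 and 274.5 CPM in NPC_LPC, and Krt7 103 and 165.5 CPM against 1.43 and 17.2 CPM, so that neither keratin had overlapping groups. The part of this in the values of the Wnt genes was not tested.

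Both kinds of culture transcribed a small set of ligands, most Frizzled receptors and the co-receptors Lrp5, Lrp6 and Ryk, and few secreted antagonists. Fzd7, Wnt7a and Wnt10a were higher in both HepLPC libraries than in either NPC_LPC library, and Wnt5a and Fzd3 were lower, but none of the 5 passed the edgeR test over all genes. Of the 43 genes, 8 had no count in any library and 16 stayed under 10 counts in every library. The edgeR filter on low counts left 25 genes to test and 18 untested. Some of the 25 passed it only through the group in which they are higher, so the 25 are not a fair sample of the family. Between the origins, edgeR called 0 of the 25 at an adjusted p of 0.05, where 0.43% of all 12332 tested genes were called. At an unadjusted p under 0.05 edgeR had 5 of them (Fzd7, Wnt5a, Fzd3, Wnt7a and Sfrp2), against 21.9% of all tested genes. DESeq2, which tested 27 of the 43, called 2 higher in HepLPC (Fzd7 and Wnt7a) and 2 lower (Wnt5a and Fzd3), against 5.39% and 6.27% of the genes it tested, and limma-voom called 0, against 0.0405%. In 9 of the 25 the CPM of the groups did not overlap, where 56.4% of all tested genes had such groups. Besides the 5 genes named first, these were Fzd4, Fzd8, Fzd9 and Sfrp2. The median log2 fold change of the 25, HepLPC over NPC_LPC, was 0.05, beside 0.0 for all tested genes.

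**Figure D1:**
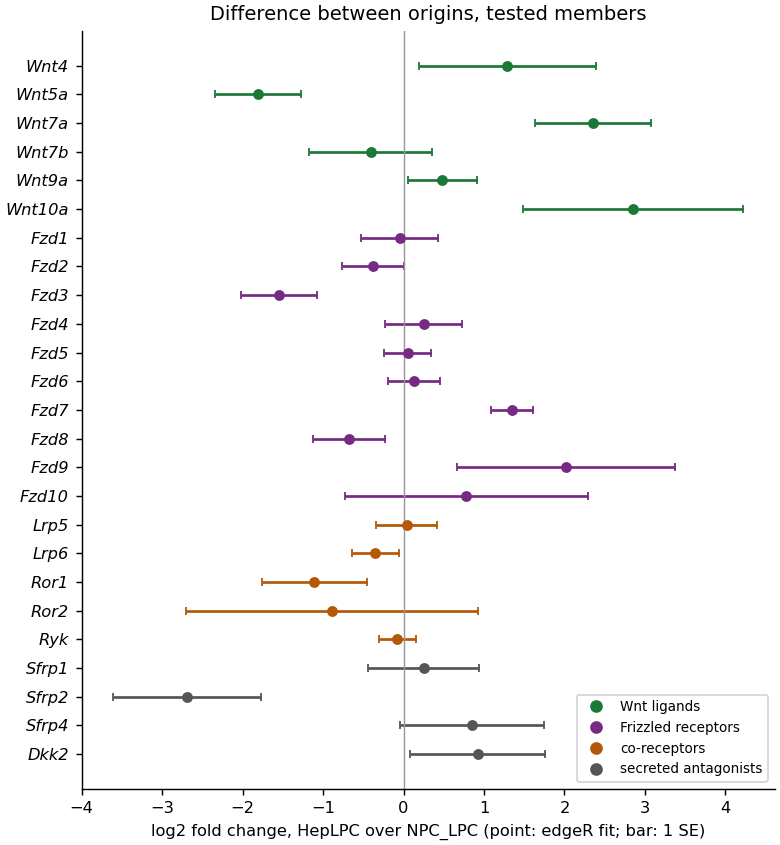
Log2 fold change of HepLPC over NPC_LPC from the edgeR fit (horizontal axis) for the 25 tested genes, coloured by role, with bars of 1 standard error. Fzd7 combines a change of 1.35 with a standard error of 0.26, whereas Wnt10a, at 2.85, has a standard error of 1.37.

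The stretches upstream of 4 of the genes are shown because they set the receptor and the ligand that DESeq2 called higher in HepLPC (Fzd7 and Wnt7a) beside ligands with no count in any library (Wnt3a and Wnt8b). Each is the 250 bases before the RefSeq start on GRCm38.p6, 5′ to 3′ on the strand of the gene, with CG dinucleotides in capitals: chr1:59481897-59482146, plus strand, for Fzd7, chr6:91411354-91411603, minus strand, for Wnt7a, chr11:59290752-59291001, minus strand, for Wnt3a, and chr19:44493222-44493471, plus strand, for Wnt8b.
Fzd7: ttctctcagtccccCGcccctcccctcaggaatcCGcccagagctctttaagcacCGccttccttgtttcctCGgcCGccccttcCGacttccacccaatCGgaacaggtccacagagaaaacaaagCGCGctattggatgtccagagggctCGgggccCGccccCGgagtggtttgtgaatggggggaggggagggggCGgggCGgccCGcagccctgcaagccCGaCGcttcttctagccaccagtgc
Wnt7a: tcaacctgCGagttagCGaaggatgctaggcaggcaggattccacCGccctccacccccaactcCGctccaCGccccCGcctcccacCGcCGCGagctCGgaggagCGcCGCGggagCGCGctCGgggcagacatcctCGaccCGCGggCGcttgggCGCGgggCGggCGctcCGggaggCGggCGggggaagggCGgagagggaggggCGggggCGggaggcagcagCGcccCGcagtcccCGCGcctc
Wnt3a: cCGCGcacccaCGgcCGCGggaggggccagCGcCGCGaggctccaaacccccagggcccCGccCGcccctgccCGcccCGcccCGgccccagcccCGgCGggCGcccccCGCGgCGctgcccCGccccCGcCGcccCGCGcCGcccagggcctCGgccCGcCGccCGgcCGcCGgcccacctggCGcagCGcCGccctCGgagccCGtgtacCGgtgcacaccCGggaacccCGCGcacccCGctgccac
Wnt8b: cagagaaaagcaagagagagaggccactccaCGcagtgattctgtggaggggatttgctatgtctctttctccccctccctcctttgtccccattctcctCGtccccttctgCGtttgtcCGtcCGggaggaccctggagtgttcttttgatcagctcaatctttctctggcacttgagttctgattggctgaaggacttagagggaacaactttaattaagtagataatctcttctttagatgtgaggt
The window of Fzd7 held 17 CG dinucleotides and that of Wnt7a 34, while Wnt3a, with no count, had 41 and Wnt8b 5. A CG-rich window was therefore found before a transcribed ligand gene and before one with no count alike. RefSeq promoters were matched for 29 of the 43 genes (32 windows), with a median of 22 CG dinucleotides against 6 over all 32851 windows. CTTTGAT or CTTTGAA, core letters of the TCF/LEF motif searched on both strands, stood in 3 of the 32 windows (9.38%), those of Dkk1, Wnt11 and Wnt5b, against 7.48% of all windows. Neither of these 2 forms stood in the 4 windows shown. Other forms of the core, such as CTTTGTT, were not searched, and its reverse complement, AACAAAG, is present in the Fzd7 window. The 2 motifs cannot overlap on a strand, and a match is a description of letters only.

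Of the Wnt ligands, Wnt10a, Wnt7b, Wnt9a, Wnt4, Wnt7a and Wnt5a were transcribed at levels that could be tested, and the other 13 of the 19 had at most 17 counts in any library. edgeR called 0 of the 6. Summed over the 19 genes, ligand FPKM was 48.2 and 81.0 in HepLPC replicates 1 and 2 and 29.7 and 24.8 in NPC_LPC replicates 1 and 2. Summed CPM was 106 and 226.5 against 113 and 130, which overlaps. Wnt10a alone was at 35.3 and 40.5 FPKM against 10.5 and 0.184 FPKM.

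Wnt10a, a ligand of the beta-catenin branch best known in skin appendages and teeth (chromosome 1, 74792019 to 74804176), measured 48.1 and 52.8 CPM in HepLPC, against 13.8 and 0.247 CPM in NPC_LPC. Both HepLPC libraries were high, NPC_LPC replicate 1 was intermediate, and replicate 2 had 5 counts where replicate 1 had 252. The group means were 50.4 ± 3.31 and 7.04 ± 9.60 CPM (SD, n = 2 each), a log2 fold change of 2.85 (SE 1.37, edgeR adjusted p = 0.291). Without NPC_LPC replicate 1 the change was 7.65 with an edgeR adjusted p of 0.00304, in a fit that called 1.22% of all genes higher in HepLPC and assumes that the lone NPC_LPC library varies like the others. Without NPC_LPC replicate 2 it was 1.87 (edgeR adjusted p = 0.119). Over all alternatives the adjusted p of Wnt10a lay between 0.00304 and 0.465. By FPKM it was the leading ligand in 3 libraries, at 73.3% and 50.0% of the ligand total in HepLPC replicates 1 and 2 and 35.4% in NPC_LPC replicate 1, and 0.74% in NPC_LPC replicate 2.

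Wnt7b, a ligand of lung and kidney epithelium (chromosome 15), measured 10.9 and 65.1 CPM in HepLPC, against 41.6 and 59.5 CPM in NPC_LPC. HepLPC replicate 1 was the low library, and the other 3 lay together. Its share of the ligand FPKM was 29.0% and 48.0% in NPC_LPC, where it led replicate 2, and 4.66% and 17.0% in HepLPC. The log2 fold change was -0.41 (SE 0.77, edgeR adjusted p = 0.787) and turned to 0.38 without HepLPC replicate 1.

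Wnt7a, the closest relative of Wnt7b and a ligand of the female reproductive tract and limb (chromosome 6, 91363981 to 91411353), measured 7.55 and 32.5 CPM in HepLPC, against 3.89 and 3.91 CPM in NPC_LPC. The groups did not overlap, and HepLPC replicate 2 was far above replicate 1. The log2 fold change was 2.36 (SE 0.72), with an adjusted p of 0.155 by edgeR, 0.0114 by DESeq2 and 0.254 by limma-voom. Without HepLPC replicate 2 the change was 0.95 (edgeR adjusted p = 0.419).

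Wnt5a, the best known ligand of the branch outside beta-catenin and of Ror2 (chromosome 14, 28504543 to 28527448), went the other way. It measured 7.11 and 11.9 CPM in HepLPC, against 19.8 and 46.8 CPM in NPC_LPC, so that every NPC_LPC value exceeded every HepLPC value. NPC_LPC had 33.3 ± 19.1 CPM and HepLPC 9.53 ± 3.42 CPM, a log2 fold change of -1.81 (SE 0.53), with an adjusted p of 0.143 by edgeR, 0.0137 by DESeq2 and 0.169 by limma-voom. Without NPC_LPC replicate 2 the change was -1.06 (edgeR adjusted p = 0.378). That library also had 46 counts of Acta2, 28 of Col1a2 and 21 of Col3a1, myofibroblast and fibroblast markers with no count in the other 3. Other markers of these cells were lowest there. Des had 3 counts against 14, 24 and 13, Pdgfra 0 against 12, 17 and 7, and Rgs5 4 against 20, 17 and 22. The part of such cells in the value of Wnt5a was not tested. Genes on chromosome 14 had a median log2 fold change of -0.41 and those on chromosome 15 one of 0.68, beside 0.02 for all genes above 10 CPM. Those on chromosome 14 also had a median log2 difference of 0.59 between HepLPC replicates 2 and 1. The part of these shifts in the values of Wnt5a and Wnt7b was not tested.

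Wnt4, a ligand of kidney, gonad and mammary development (chromosome 4), measured 17.8 and 42.2 CPM in HepLPC, against 22.9 and 1.68 CPM in NPC_LPC. NPC_LPC replicate 2 was low, as it was for Wnt10a, and the groups overlapped (log2 fold change 1.29 with an SE of 1.10, edgeR adjusted p = 0.524). Leaving out 1 library moved the change between 0.39 (without NPC_LPC replicate 2, edgeR adjusted p = 0.773) and 4.17 (without NPC_LPC replicate 1, edgeR adjusted p = 0.0387), and without HepLPC replicate 2 it was 0.54 (edgeR adjusted p = 0.86). Markers of mesothelium, a lining that a liver preparation can hold, also differed within groups. The 6 genes summed to 202 and 822 CPM in HepLPC and to 612 and 232 CPM in NPC_LPC, most of it Msln, with Lrrn4 at 3 counts or fewer. Genes on chromosome 4 had a median log2 fold change of -0.56, and a median log2 difference of 0.36 between HepLPC replicates 2 and 1. The part of the mesothelial markers and of these shifts in the values of Wnt4 was not tested.

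Wnt9a, a ligand of joint and liver development (chromosome 11), was the most even of the transcribed ligands. It measured 13.8 and 20.8 CPM in HepLPC, against 8.99 and 15.8 CPM in NPC_LPC, with overlapping groups (log2 fold change 0.48 with an SE of 0.43, edgeR adjusted p = 0.547).

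The ligands known from liver endothelium had few or no counts. Wnt9b had no count in any library, and Wnt2 had 5 and 0 counts in HepLPC replicates 1 and 2 and 9 and 15 in those of NPC_LPC. Wnt5b, a relative of Wnt5a, had 0 and 7 counts against 8 and 17. In both genes the NPC_LPC counts were the higher ones, too low for the edgeR test, and DESeq2 gave adjusted p of 0.598 and 0.685. Liver endothelial markers summed to 2.41 to 7.44 CPM per library over 8 genes, most of it Kdr, and Pecam1, Lyve1 and Clec4g had at most 3 counts. Macrophage and leukocyte markers summed to 16.9 to 81.7 CPM over 7 genes, most of it Cd68, with Adgre1, Clec4f and Cd3e at 3 counts or fewer. In bulk samples fewer cells of a type and less RNA per cell cannot be told apart.

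Wnt3a, Wnt8a, Wnt8b, Wnt9b and Wnt16 had no count in any library, and Wnt1, Wnt6 and Wnt11 at most 3. Wnt2b, Wnt3 and Wnt10b reached 6, 5 and 8 counts. Several of these genes lie within 50 kb of another Wnt gene, and the transcribed ones had a partner with 3 counts or fewer. Wnt10a, with up to 937 counts, is separated by 6696 bases from Wnt6, with up to 3. Wnt9a, with up to 370 counts, lies 16097 bases from Wnt3a, which had none. The pair of Wnt10b and Wnt1, and that of Wnt9b and Wnt3, were near the floor on both sides.

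**Figure D2:**
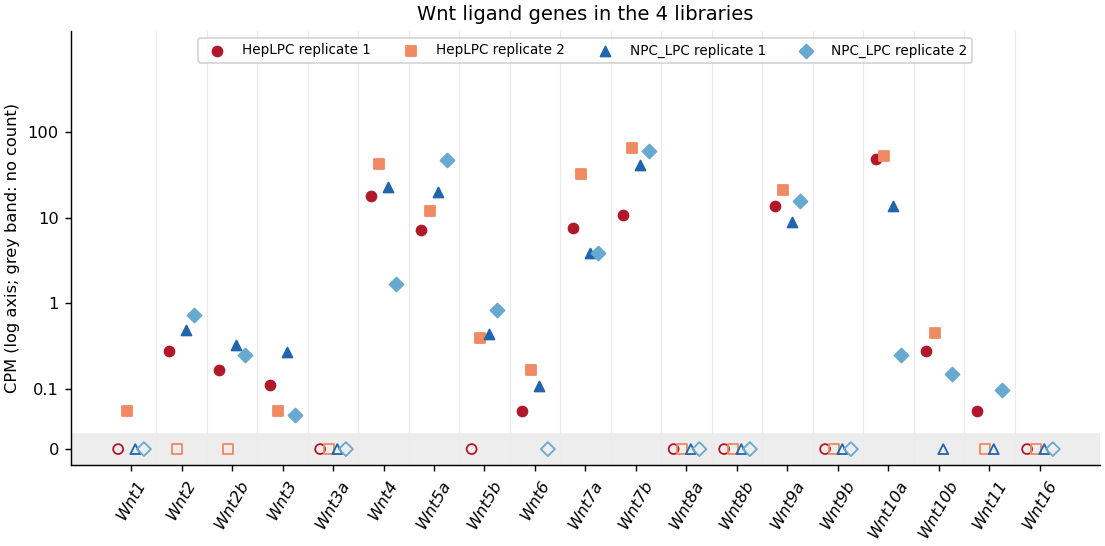
CPM of the 19 Wnt ligand genes (vertical log axis) in each of the 4 libraries, with open symbols in the grey band for libraries with no count. Wnt10a lies at 48.1 and 52.8 CPM in HepLPC and at 0.247 CPM in NPC_LPC replicate 2, Wnt5a is higher in both NPC_LPC libraries, and 5 genes have no count in any library.

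All 10 Frizzled genes could be tested, and edgeR called 0. By mean FPKM, Fzd6, Fzd7, Fzd5 and Fzd2 were the most abundant, and Fzd3, Fzd9 and Fzd10 were under 1 FPKM in every library. Summed Frizzled FPKM was 39.0 and 34.7 in HepLPC replicates 1 and 2 and 27.9 and 35.1 in those of NPC_LPC, with overlapping groups.

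Fzd7, a receptor prominent in stem and progenitor cells (chromosome 1, 59482147 to 59486955), had the smallest p of the family. It measured 53.3 and 48.1 CPM in HepLPC, against 20.4 and 19.3 CPM in NPC_LPC. Both pairs of replicates were close and the groups were well apart. The means were 50.7 ± 3.65 and 19.9 ± 0.704 CPM, so Fzd7 was 2.55-fold higher in HepLPC (log2 fold change 1.35, SE 0.26). The edgeR adjusted p was 0.0822, that of DESeq2 was 7.68e-04, and that of limma-voom 0.0844. With no filter on low counts edgeR gave 0.0452, in a fit that called 1.64% of all genes higher in HepLPC. With the replicate number as a block edgeR gave an adjusted p of 0.13. By limma on log2(FPKM + 1) with no filter it was 0.154. Over all alternatives the log2 fold change stayed between 1.17 and 1.42. Genes on chromosome 1 had a median log2 fold change of -0.09. Within the family Fzd7 held 28.7% and 29.7% of the FPKM in HepLPC and 15.5% and 11.8% in NPC_LPC. The hepatocyte marker list moved with the same groups, at 244 and 252 CPM over 7 genes in HepLPC and 27.7 and 50.04 CPM in NPC_LPC, nearly all of it Hnf4a. Its part in the difference was not tested.

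Fzd3, a receptor of axon guidance and planar polarity (chromosome 14, 65192441 to 65262463), measured 2.50 and 2.93 CPM in HepLPC, against 6.91 and 9.06 CPM in NPC_LPC. The groups did not overlap, with a log2 fold change of -1.55 (SE 0.47). The adjusted p was 0.154 by edgeR and 0.0484 by DESeq2. Like Wnt5a it lies on chromosome 14, where the median was -0.41. Fzd8 was also lower in both HepLPC libraries, at 4.39 and 4.96 CPM against 8.83 and 6.19 CPM in NPC_LPC (log2 fold change -0.68 with an SE of 0.45, edgeR adjusted p = 0.421).

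Fzd6, a receptor with a part in planar polarity of skin and hair (chromosome 15), measured 62.7 and 40.2 CPM in HepLPC, against 40.04 and 53.6 CPM in NPC_LPC. Fzd5, a receptor that the intestinal Paneth cell needs (chromosome 1), was at 59.04 and 42.6 CPM against 42.3 and 55.5 CPM. In both, HepLPC replicate 1 and NPC_LPC replicate 2 were the higher libraries and the groups overlapped fully, with log2 fold changes of 0.13 (SE 0.32) and 0.05 (SE 0.29). Genes on chromosome 15 had a median log2 fold change of 0.68, and a median log2 difference of 0.26 between HepLPC replicates 2 and 1. The part of these shifts in the values of Fzd6 was not tested. Fzd6 led the family by FPKM in 3 libraries, at 12.2 FPKM in HepLPC replicate 1 and 7.76 and 10.7 FPKM in NPC_LPC, and Fzd7 led in HepLPC replicate 2, at 10.3 against 7.48 FPKM. Fzd7 and Fzd6 thus exchanged places within HepLPC, and their order there is not beyond the spread.

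Fzd2 and Fzd1, close relatives of Fzd7, had overlapping groups. Fzd2 measured 12.1 and 18.8 CPM in HepLPC, against 16.2 and 23.8 CPM in NPC_LPC, and Fzd1 measured 6.17 and 12.8 CPM against 8.94 and 10.7 CPM. Fzd4, a receptor of retinal vessels, measured 5.11 and 5.07 CPM in HepLPC, against 3.51 and 5.05 CPM in NPC_LPC. Its groups were apart by CPM only at the level of these decimals, and they overlapped by FPKM. Fzd9 had 18 and 12 counts in HepLPC and 0 and 8 in NPC_LPC, and Fzd10 had 35 and 25 against 0 and 39. Neither gene had a count in NPC_LPC replicate 1, and the errors of their fold changes were wide (SE 1.36 and 1.51).

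**Figure D3:**
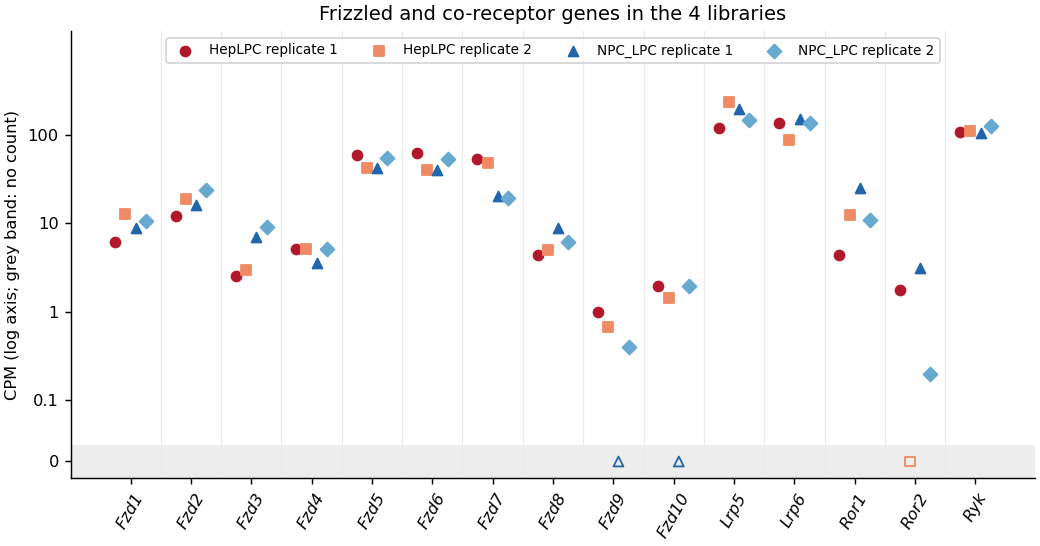
CPM of the 10 Frizzled and 5 co-receptor genes (vertical log axis) in each of the 4 libraries, with open symbols in the grey band for libraries with no count. The HepLPC values of Fzd7 lie above those of NPC_LPC and those of Fzd3 below, while Lrp5, Lrp6 and Ryk have overlapping groups between 87.4 and 234.6 CPM.

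The co-receptors Ryk and Lrp5 had the highest mean FPKM of the 43 genes, and edgeR and DESeq2 called 0 of the 5 co-receptor genes. Ryk, a receptor tyrosine kinase-like protein with a Wnt-binding domain, measured 107 and 111 CPM in HepLPC, against 104 and 126 CPM in NPC_LPC. It had the smallest error of the tested genes (log2 fold change -0.08, SE 0.23), and its FPKM lay between 33.2 and 42.1 across libraries. In HepLPC replicate 2 Wnt10a, at 40.5 FPKM, exceeded Ryk at 35.3, and in replicate 1 they were at 35.29 and 35.34 FPKM.

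Lrp5 measured 120 and 235 CPM in HepLPC, against 195 and 150.0 CPM in NPC_LPC. HepLPC replicate 2 was the highest library and HepLPC replicate 1 the lowest. Lrp5 lies on chromosome 19, whose genes had a median log2 difference of 0.66 between HepLPC replicates 2 and 1 and of -0.48 between NPC_LPC replicates 2 and 1. Its part in the spread of Lrp5 was not tested. Lrp6, the other co-receptor of the beta-catenin branch, measured 138 and 87.4 CPM in HepLPC, against 151 and 136 CPM in NPC_LPC (log2 fold change -0.35 with an SE of 0.29, edgeR adjusted p = 0.516). Per length Lrp5 exceeded Lrp6 in all 4 libraries, at 15.4 against 13.8 FPKM in HepLPC replicate 1 and 32.3 against 8.47 FPKM in replicate 2.

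Ror1 and Ror2, the tyrosine kinase-like receptors of Wnt5a signalling, were lower and uneven. Ror1 measured 4.39 and 12.3 CPM in HepLPC, against 25.2 and 10.8 CPM in NPC_LPC (log2 fold change -1.11 with an SE of 0.65, edgeR adjusted p = 0.368). Ror1 lies on chromosome 4, whose genes had a median log2 fold change of -0.56. The part of that shift in the values of Ror1 was not tested. Ror2 had 32 and 0 counts in HepLPC replicates 1 and 2 and 57 and 4 in those of NPC_LPC. Ror2 was thus near the floor in the library numbered 2 of each group, including NPC_LPC replicate 2, where Wnt5a was highest.

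**Figure D4:**
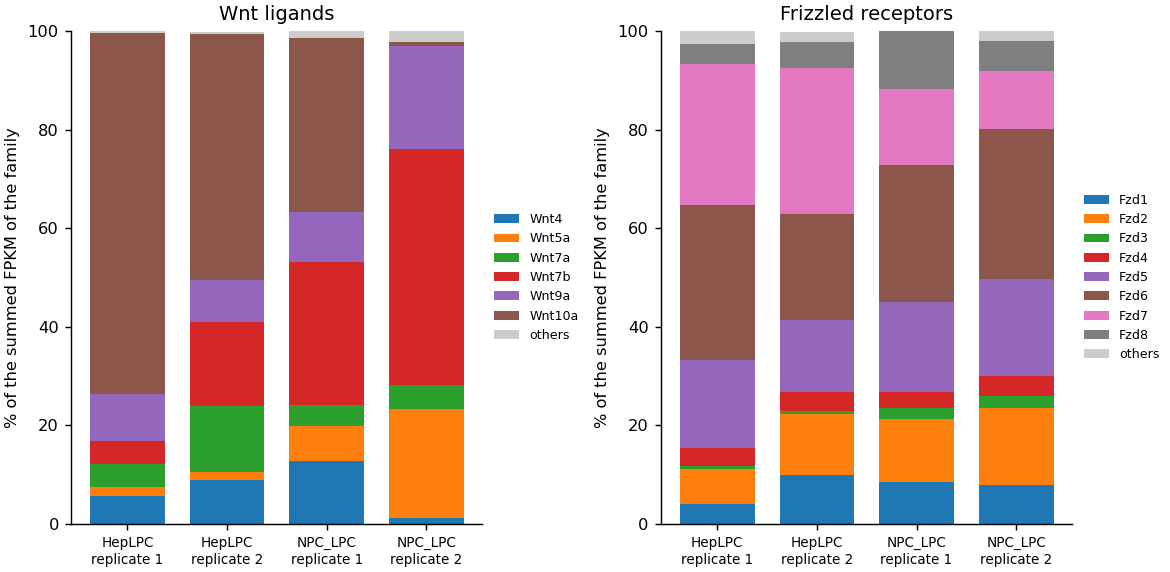
Share of each gene in the summed FPKM of the Wnt ligands (left) and of the Frizzled receptors (right) in each library (vertical axis, percent), with genes under 2% in every library grouped as others. Wnt10a takes 73.3% and 50.0% of ligand FPKM in HepLPC and 0.74% in NPC_LPC replicate 2, where Wnt7b takes 48.0%, while Fzd7 takes 28.7% and 29.7% of Frizzled FPKM in HepLPC and 15.5% and 11.8% in NPC_LPC.

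Secreted antagonists were scarce in both groups. Their 9 genes summed to between 1.46 and 3.38 FPKM per library, edgeR called 0 of the 4 tested, and DESeq2 called 0. Sfrp5, Dkk4 and Wif1 had no count in any library. Dkk1, an inhibitor that Wnt signalling itself induces, had 9 counts in HepLPC replicate 2 and none elsewhere, and Dkk3 had 0 and 3 counts in HepLPC and 0 and 8 in NPC_LPC.

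Sfrp2, a secreted Frizzled-related protein typical of fibroblasts (chromosome 3), measured 0.555 and 0.451 CPM in HepLPC, against 5.32 and 1.24 CPM in NPC_LPC. Both NPC_LPC values exceeded both HepLPC values, which rest on 10 and 8 counts (log2 fold change -2.69, SE 0.92). The adjusted p was 0.182 by edgeR and 0.081 by DESeq2. Without NPC_LPC replicate 1 the change was -1.27 (edgeR adjusted p = 0.68), and by limma on log2(FPKM + 1) it was -0.88. Markers of stellate cells and fibroblasts summed to 15.8 and 10.5 CPM over 12 genes in HepLPC and to 6.97 and 18.3 CPM in NPC_LPC. Reln was the largest in HepLPC and Col1a1 in NPC_LPC. Lrat, Pdgfrb and Lum had at most 3 counts, and Dcn had 7 and 1 counts in HepLPC and 26 and 6 in NPC_LPC. NPC_LPC replicate 1, the library with the most Sfrp2, had the smallest sum of these markers and the most Dcn. Their part in the values of Sfrp2 was not tested.

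Sfrp1 measured 5.61 and 3.27 CPM in HepLPC, against 5.54 and 1.93 CPM in NPC_LPC, and Sfrp4 measured 1.22 and 5.07 CPM against 1.04 and 2.42 CPM. Dkk2 had 14 and 40 counts in HepLPC and 11 and 20 in NPC_LPC. In each of these 3 genes the groups overlapped. By FPKM Sfrp1 led in HepLPC replicate 1, Sfrp4 in HepLPC replicate 2 and NPC_LPC replicate 2, and Sfrp2 in NPC_LPC replicate 1.

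**Figure D5:**
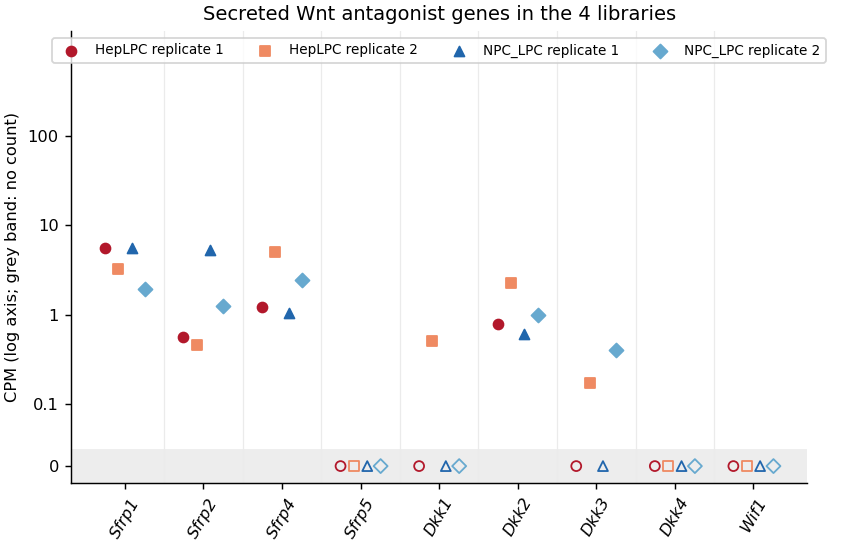
CPM of the 9 secreted antagonist genes (vertical log axis) in each of the 4 libraries, with open symbols in the grey band for libraries with no count. No gene exceeds 5.61 CPM, Sfrp2 is higher in both NPC_LPC libraries, and Sfrp5, Dkk4 and Wif1 have no count in any library.

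Replicates of the tested genes were often far apart. In 8 of the 25 genes (32.0%) the HepLPC libraries differed more than 2-fold on the log2(CPM + 0.5) scale, and in 8 the NPC_LPC libraries did, where 12.0% and 12.3% of all tested genes differed so. Wnt4, Ror1 and Ror2 were among them in both groups.

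The rest of the pathway was read from 7 lists holding 91 genes outside the family, of which 75 were tested. edgeR called 0 of the 75, beside 0.43% of all tested genes, and had 22 at an unadjusted p under 0.05, beside 21.9%. DESeq2, which tested 79 of the 91, called 4 higher and 10 lower in HepLPC, beside 5.39% and 6.27% of all genes it tested, and limma-voom called 0, beside 0.0405%. Their median log2 fold change was -0.19, over the 75 tested, beside 0.0 for all tested genes. Positive and negative fold changes numbered 25 and 50, beside 6144 and 6188 of all tested genes. By list they were 2 and 5 for ligand handling, 3 and 3 for other extracellular modulators, and 3 and 3 for R-spondins and receptors. They were 3 and 16 for the cytoplasmic branch, 5 and 7 for TCF/LEF factors, 9 and 5 for feedback and target genes, and 4 and 12 for polarity. Genes in more than 1 list count in each. For the handling of ligands (9 genes, 7 tested), the smallest p was that of Gpc4, a cell surface glypican, at 12.3 and 16.7 CPM in HepLPC and 36.4 and 41.9 CPM in NPC_LPC (edgeR adjusted p = 0.0921). Tmed2, a cargo receptor of the early secretory pathway and the most abundant of that list, was at 310 to 344 CPM in the 4 libraries. Among other extracellular modulators (12 genes, 6 tested), Reck, a membrane protein that presents Wnt7 ligands, measured 0.667 and 0.901 CPM in HepLPC, against 4.88 and 4.16 CPM in NPC_LPC (edgeR adjusted p = 0.107). Adgra2 of the same list, named here after its values were seen, went the other way. It measured 43.4 and 25.2 CPM in HepLPC, against 15.1 and 11.5 CPM in NPC_LPC, with an adjusted p of 0.136 by edgeR and 0.023 by DESeq2. Tspan12, a Fzd4 partner with the highest mean FPKM of that list, was at 31.6 and 80.4 CPM against 35.0 and 16.6 CPM.

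Among R-spondins and their receptors (9 genes, 6 tested), Lgr6 measured 5.28 and 4.17 CPM in HepLPC, against 17.9 and 21.1 CPM in NPC_LPC, with an adjusted p of 0.0763 by edgeR and 1.06e-04 by DESeq2. Rnf43, a ubiquitin ligase that removes Frizzled receptors from the surface, measured 138 and 89.1 CPM in HepLPC, against 66.3 and 9.55 CPM in NPC_LPC. NPC_LPC replicate 2 was again the low library. In the cytoplasmic branch (19 genes, all tested), Ctnnb1, the beta-catenin gene, measured 704 and 734 CPM in HepLPC, against 991 and 886 CPM in NPC_LPC (log2 fold change -0.38 with an SE of 0.25, edgeR adjusted p = 0.413). Amer1, which recruits Apc to the membrane, had the smallest p there, at 10.7 and 6.59 CPM against 21.3 and 22.7 CPM (edgeR adjusted p = 0.136).

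Among the TCF/LEF factors and partners (13 genes, 12 tested), the corepressor gene Tle4 had the smallest p, at 59.1 and 54.0 CPM in HepLPC and 32.2 and 26.0 CPM in NPC_LPC (edgeR adjusted p = 0.129). Pygo2, at 56.2 to 73.3 CPM across libraries, had the highest mean FPKM of the list, although Bcl9l exceeded it in replicate 1 of each group (12.1 against 11.4 FPKM in HepLPC and 18.1 against 12.2 FPKM in NPC_LPC). Of the feedback and target genes (17 genes outside the family, 14 tested), Cd44, a hyaluronan receptor, measured 446 and 551 CPM in HepLPC, against 1688 and 1671 CPM in NPC_LPC, with an adjusted p of 0.0656 by edgeR and 7.08e-08 by DESeq2. Ccnd1, the cyclin D1 gene, went the other way, at 2790 and 2416 CPM against 1528 and 1440 CPM (edgeR adjusted p = 0.175). Axin2, the most general feedback gene of beta-catenin signalling and named here after its values were seen, measured 48.7 and 52.3 CPM in HepLPC, against 45.4 and 34.3 CPM in NPC_LPC (log2 fold change 0.34, edgeR adjusted p = 0.49). In the polarity and Ror branch (18 genes, 16 tested), Prickle2 had 2 and 1 counts in HepLPC and 59 and 30 in NPC_LPC (edgeR adjusted p = 0.0866). Rhoa, a small GTPase, was at 410 to 508 CPM in all libraries.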

How the data were processed

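RNA of 4 libraries, 2 HepLPC and 2 NPC_LPC, was measured by paired-end sequencing with a strand-keeping polyadenylated RNA kit, per the labels' protocols. Trimmomatic, HISAT2, Cufflinks, HTSeq and DESeq were used with the build mm10 (GRCm38), per the submitters' processing notes. Their versions, the gene annotation and whether counting used strand were not given in the sources used here. GENCODE annotates opposite-strand transcripts over exons of Wnt5a, Wnt7b, Wnt11, Fzd5, Fzd6 and Sfrp2, whose reads may therefore be shared. The authors deposited read counts per gene symbol, per the file headers. They also deposited FPKM, the unit named in the file headers. A symbol pattern selected the 43 genes in tables of 21878 rows. Groups and replicate numbers were read from titles.

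Counts were tested on the whole table by quasi-likelihood in edgeR 4.0.16 (R 4.3.3, TMM, filterByExpr, group as the only term, two-sided, Benjamini-Hochberg over 12332 genes, threshold 0.05), after a check on simulated data. The pass condition of that check used a low simulated spread, so it does not give the power of the test in these libraries. Standard errors come from the F statistic. An exact permutation test of 2 libraries against 2 cannot go below p = 0.333 and was not run. Alternatives were other scalings and filters, DESeq2 1.42.0, limma-voom (limma 3.58.1), a replicate block, leaving out each library, and limma on log2 FPKM. Genes with a mean of at least 1 CPM or 10 counts in any library were given by library. Of each pathway list, the gene with the smallest p (none passed) and the most abundant by FPKM were named. The genes, lists and rules were chosen with earlier results of these data known. Chromosome medians use genes of at least 10 CPM. Positions and upstream sequences are from RefSeq (GRCm38.p6). Matching used the symbol.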

Additional observations from a re-analysis of the deposited data

How the results depend on the processing

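The counts of calls moved with the test and the libraries. Over all genes, edgeR called 53 genes, 593 with no filter on low counts, 80 with a mean of at least 5 CPM, and 0 at a threshold of 0.01. DESeq2 called 1523, limma-voom 5, and limma on log2(FPKM + 1) 111, or 0 with no filter on low FPKM. Leaving out 1 library gave 0 to 377 genes: 0 without HepLPC replicate 1 or 2, 377 without NPC_LPC replicate 1 and 107 without NPC_LPC replicate 2. Of the 43 genes, 0 were called in the edgeR fit, 4 by DESeq2, 1 with no filter (Fzd7), and 0 to 2 when 1 library was left out (Wnt10a and Wnt4, without NPC_LPC replicate 1). Of the other pathway genes, 0 were called by edgeR, 14 by DESeq2, 4 with no filter, 1 by limma on log2(FPKM + 1), and 0 to 3 when 1 library was left out. The cause of these moves was not tested, beyond the change in samples and in genes tested that each setting brings. Genes with an adjusted p numbered 12332 by edgeR, 15835 with no filter, 13072 by DESeq2 and 11062 by limma on log2(FPKM + 1). In the same order these were 25, 35, 27 and 20 of the 43, and 75, 85, 79 and 71 of the other pathway genes.

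The replicate numbers did not pair the libraries by the check used: the deviations of same-numbered libraries from their group means had r = -0.017 over 12332 genes, which are not independent. With the replicate number as a block, edgeR called 136 genes in all, 0 of the 43 and 1 other pathway gene, Ptk7.

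For the 25 tested genes, 328 of 357 alternative values kept direction and side of the threshold, 7 passed it and 22 changed sign. The 328 include, for each of the 25 genes, the setting with the stricter threshold of 0.01. That setting reuses the edgeR fit, in which none of the 25 was called, so its values could not change sign or side. These values therefore say nothing about stability. No gene that changed sign was called under any setting. When 1 library was left out, the log2 fold changes of the genes that changed sign ran from -2.22 to 0.38 for Wnt7b, -0.67 to 0.4 for Fzd1, -0.19 to 0.27 for Fzd5, -0.21 to 0.42 for Fzd6, -0.18 to 7.92 for Fzd10, -0.53 to 0.45 for Lrp5, -7.97 to 2.15 for Ror2, -0.19 to 0.06 for Ryk, -0.32 to 1.22 for Sfrp1, -0.51 to 1.59 for Sfrp4 and -0.04 to 1.51 for Dkk2. Lrp5 was also at -0.03 by limma-voom and with the replicate block, at -0.01 by limma on log2(FPKM + 1) with or without the filter, and at -0.02 with a pseudocount of 0.1. Their causes were not tested.

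By CPM, which takes no account of length, Wnt10a held 34.3% of the HepLPC ligand total in place of 61.6%, and Ryk 26.9% and 25.8% of the co-receptor total in HepLPC and NPC_LPC in place of 50.1% and 49.3%. Depth limits the genes with no count, which could be present at up to 0.149 to 0.169 CPM.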

Other observations

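One gene of the polarity branch was abundant in a single library, and it was chosen after its values were seen. Ptk7, a pseudokinase receptor that takes part in planar cell polarity and binds Wnt pathway receptors, measured 0.0555 and 1.01 CPM in HepLPC, against 1.26 and 118 CPM in NPC_LPC. Its log2 fold change was -6.79 with an edgeR adjusted p of 0.171. The same library, NPC_LPC replicate 2, had the highest Wnt5a of the 4 (46.8 CPM) and the highest Vangl2, a core polarity gene (47.5 CPM, where the others were at 18.9, 11.3 and 25.7 CPM). Celsr1 and Daam1 of the polarity list were also highest there. Prickle1 of that list was lowest there, at 34.25 CPM against 37.9, 44.6 and 69.4 CPM. Celsr2 was at 11.8 CPM there, against 21.0 CPM in NPC_LPC replicate 1. Vangl2 and Lgr5, like Ptk7, were not picked by the naming rule given above. NPC_LPC replicate 2 also had the lowest Wnt10a, Wnt4 and Rnf43, and Lgr5, an R-spondin receptor of stem cells, was at 2.42 CPM there against 38.4, 7.38 and 20.0 CPM in the other 3 libraries. Of the 12 stellate cell, fibroblast and myofibroblast markers, 4 were highest there: Acta2, Col1a2 and Col3a1 had 46, 28 and 21 counts and none in the other 3 libraries, and Col1a1 had 238 counts against 73, 32 and 50. Des, Pdgfra and Rgs5 of the same list were lowest there, at 3, 0 and 4 counts. Their part in these values was not tested.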
